A study of Mus musculus with 5 samples.

Results

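Piezo1, Piezo2, Stom, Stoml3, Tmem63a, Tmem63b and Tmem150c are 7 genes known for their part in sensing mechanical force, and they were taken from a named list by gene symbol. Of these 7 genes, 6 were present among the 17267 genes counted, and Stoml3 was not analysed here. The cells came from dissociated lumbar dorsal root ganglia (DRG), the clusters of sensory neuron cell bodies beside the spinal cord, and single-cell RNA sequencing of 3′ ends was done on 5 mice of strain C57BL/6. The mice were wild type, untreated and 18 weeks old, 3 were male and 2 female, and which library came from which sex is not given. The authors clustered 3352 cells into 14 types: 3 neurofilament-rich (NF), 3 non-peptidergic (NP) and 5 peptidergic (PEP) neuron types, the tyrosine hydroxylase neurons (Th), satellite glia and endothelial cells. All values below are described over these 14 types, with each library, 1 per mouse, as the replicate.

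The 5 libraries held 13050375, 42666954, 28667742, 51281229 and 88886919 UMIs (unique molecular identifiers, each counting 1 captured RNA molecule) from 164, 539, 474, 805 and 1370 cells. Median depth per cell was 72840, 70328, 52499.5, 56004 and 56260 UMIs. Library 1 was the smallest and library 5 the largest, and the rarest types had as few as 3 cells in a library. A level is given in CPM, the UMIs of a gene per 1000000 UMIs of all cells of a type in a library, as the mean ± SD over 5 libraries. The types differed in depth, from a median of 16889 UMIs per cell in endothelial cells and 17729 in satellite glia to 105150 in NP_Mrgprd.

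Mechanically activated channels open when the membrane around them is stretched or indented, and the cations that enter start the electrical signal of touch and body position. Piezo2 is the main such channel of touch receptors and proprioceptors, while Piezo1 is best known from blood vessels, where it senses flow, and from red blood cells. Stomatin proteins sit in the inner leaf of the membrane and tune nearby channels, Tmem63 proteins form stretch- and osmolarity-gated channels, and Tmem150c (tentonin 3) has been tied to slowly inactivating mechanical currents.

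The type names matched their markers in most cases. The list for NF_Pvalb (Pvalb, Runx3, Etv1, Spp1), which as background marks muscle proprioceptors, summed to 4256 ± 436 CPM in that type and to 330 CPM in the next highest, NP_Nts. The 4 genes for NP_Nts (Nts, Sst, Nppb, Il31ra), known from itch neurons, summed to 2839 ± 454 CPM there. Both the Th list, which marks low-threshold touch receptors with unmyelinated fibres, at 1724 ± 143 CPM, and the list for NF2_Ntrk2.Necab2, at 973 ± 174 CPM, were highest in their own type. The NF2_Ntrk2.Necab2 list was next highest in satellite glia at 580 ± 56.6 CPM, of which Ntrk2 made up 579 CPM. The NF_Calb1 list separated that type least, at 5955 ± 924 CPM against 5582 CPM in NF_Pvalb, with Nefh as its most abundant gene in NF_Calb1. Calca, which encodes CGRP and marks peptidergic neurons, was higher in the mean in NP_Mrgpra3 (8599 ± 1625 CPM) than in PEP2_Htr3a.Sema5a (6715 ± 1350) and PEP3_Trpm8 (446 ± 111), so this gene did not separate the PEP and NP classes. The 6 endothelial markers summed to 7466 ± 1422 CPM in endothelial cells, where Cldn5 was the most abundant at 4315 CPM. Endothelial cells also held satellite glia markers (5571 ± 5719 CPM, Apoe the most abundant) and red blood cell markers (4295 ± 7221 CPM, Hbb-bs the most abundant), both uneven between libraries.

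Piezo2, the touch and proprioception channel, was found in most neuron types, at levels that differed widely. In Th neurons its level was 627, 712, 614, 840 and 756 CPM in libraries 1 to 5, a mean of 710 ± 93.6. In NF2_Ntrk2.Necab2 it was 523, 504, 627, 545 and 532 CPM, a mean of 546 ± 47.5. Th was above NF2_Ntrk2.Necab2 in 4 of 5 libraries, library 3 being the exception, and the mean paired difference of 164 CPM was larger than its SD of 120. These neurons with the most Piezo2 belong, as background, to light-touch receptors of hairy skin.

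Below them came NF_Calb1 at 345 ± 35.7 CPM, PEP2_Htr3a.Sema5a at 293 ± 38.3, NP_Mrgprd at 212 ± 13.7 and NF_Pvalb at 201 ± 29.4. NF_Pvalb, the type with proprioceptor markers, thus held the least Piezo2 of the 3 NF types, with 228, 224, 154, 203 and 197 CPM against 292, 353, 391, 337 and 352 CPM in NF_Calb1. Its level did not differ beyond the spread from that of NP_Mrgprd, a type known as nociceptors of the skin. PEP1_Dcn at 97.8 ± 70.2 CPM, NP_Mrgpra3 at 72.7 ± 15.5 and PEP1_S100a11.Tagln2 at 66.3 ± 16.4 formed the next group, in which neighbours overlapped. Lower still were PEP1_Slc7a3.Sstr2 at 29.4 ± 10.1, NP_Nts at 20.8 ± 8.14, satellite glia at 12.9 ± 4.51, endothelial cells at 10.8 ± 9.5 and PEP3_Trpm8 at 3.61 ± 3.24 CPM, and no neighbouring pair in this last run differed beyond its spread. Of the 13 neighbouring pairs in the order of Piezo2, 6 differed by more than 1 SD of their paired difference. With 5 libraries an exact two-sided sign-flip test cannot reach a small p, so these orders are descriptions without a test.

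**Figure D1:**
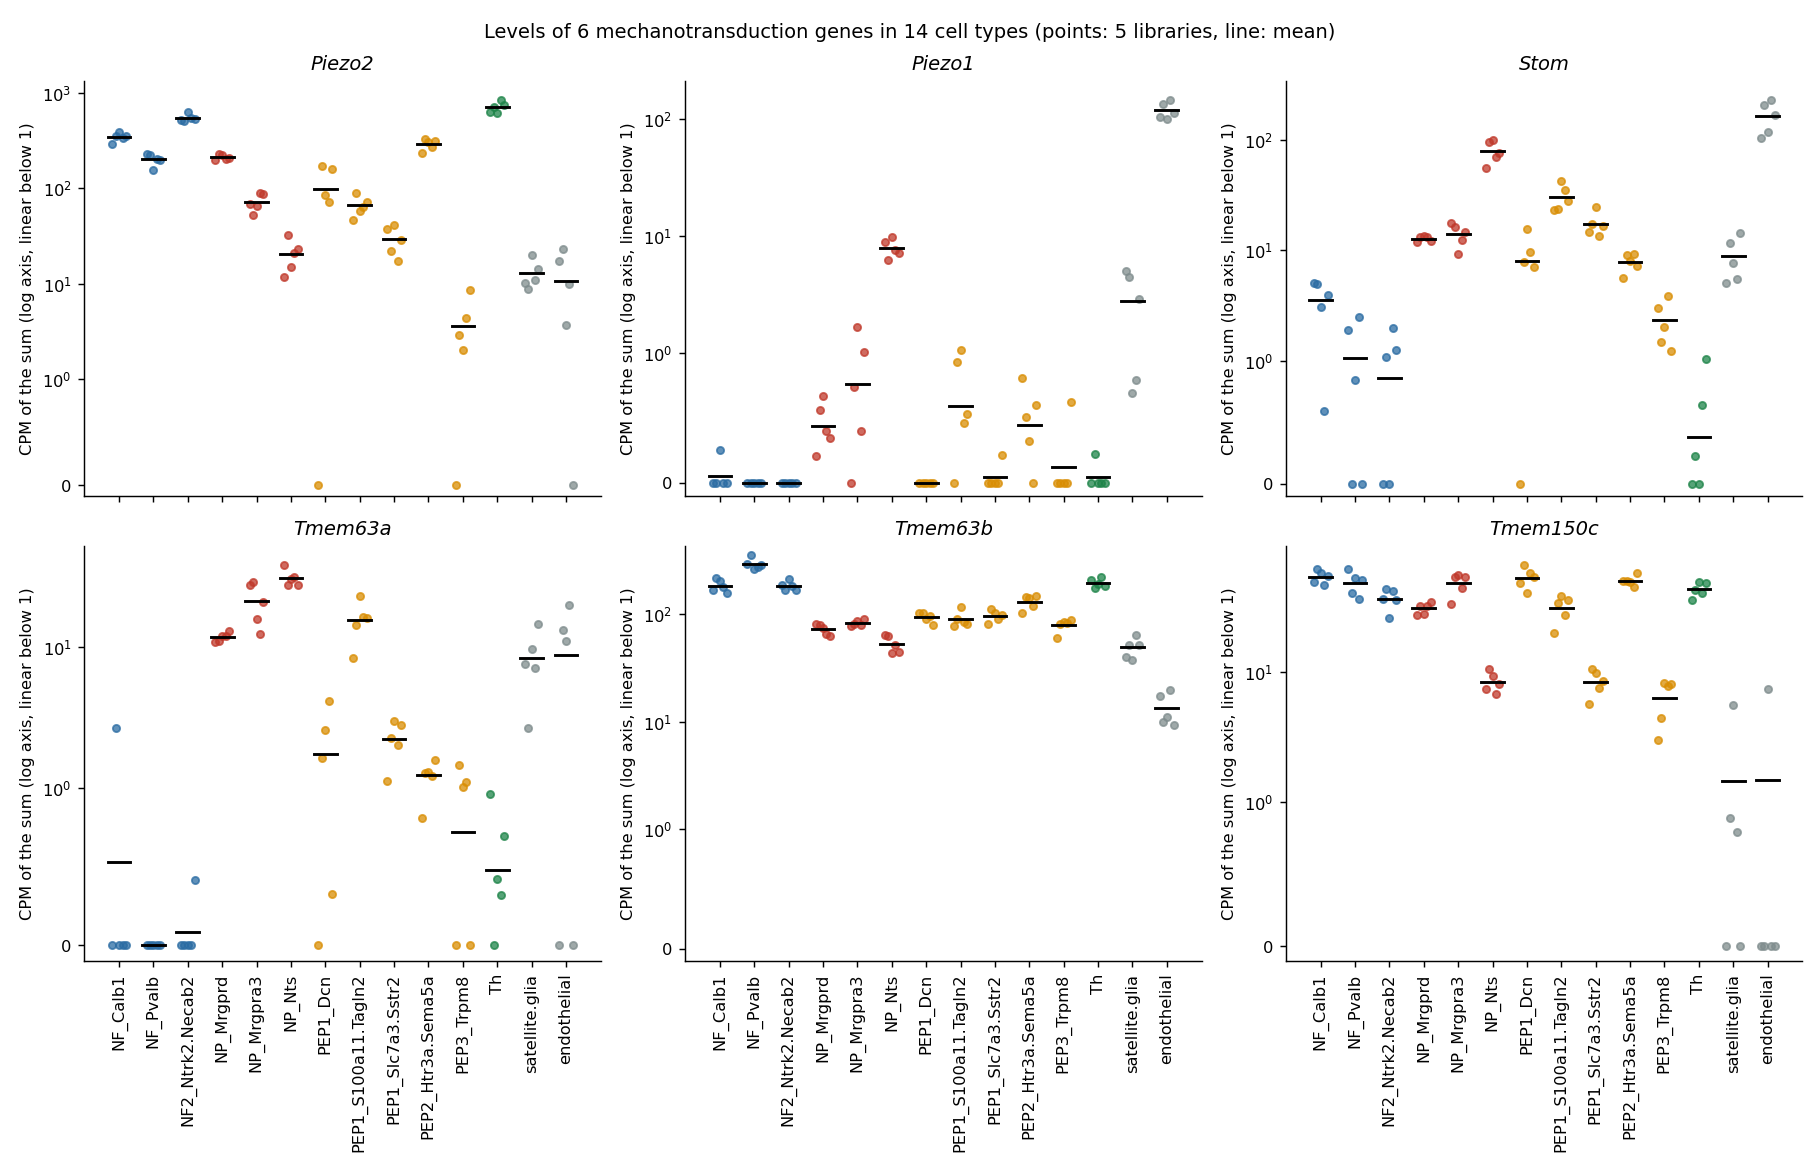
Level of each of 6 genes (CPM, log axis that is linear below 1) in 14 cell types, with a point for each of 5 libraries and a line at the mean. Piezo2 was highest in Th (710 CPM), Piezo1 and Stom in endothelial cells (118 and 164 CPM), Tmem63a in NP_Nts (31 CPM), Tmem63b in NF_Pvalb (294 CPM) and Tmem150c in NF_Calb1 (53.6 CPM).

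Counted cell by cell, the order of Piezo2 was similar but not the same. All cells of Th, the 3 NF types, NP_Mrgpra3 and PEP2_Htr3a.Sema5a held at least 1 Piezo2 UMI, and the median cell held 50 in NF2_Ntrk2.Necab2, 42 in Th, 22 in NF_Calb1 and 13 in NF_Pvalb. In satellite glia 17.7% of cells held a UMI at a median depth of 17729, and in endothelial cells 16.1% at a median depth of 16889. The 6 neuron markers summed to 224, 359, 619, 373 and 653 CPM in satellite glia (Tubb3 the most abundant) and to 275, 377, 613, 387 and 804 CPM in endothelial cells (Uchl1 the most abundant), against 5670 to 10081 CPM over the neuron types, with none of the 6 at 0. The part of neuronal RNA in the Piezo2 of these cells was not tested. When every cell was thinned to 10000 UMIs, so that depth no longer differed, Piezo2 was found in 100% of NF2_Ntrk2.Necab2, 99.1% of Th, 91.1% of NF_Calb1, 89.4% of NF_Pvalb, 85.6% of NP_Mrgprd and 11.6% of satellite glia cells. NP_Nts stood at 22.2% after thinning, PEP1_Slc7a3.Sstr2 at 17% and endothelial cells at 7.14%. PEP3_Trpm8, the cold-sensing type with 26 Piezo2 UMIs in all, stood at 2.38%, the lowest value of the 14 types. PEP1_Dcn at 40.5% came below NP_Mrgpra3 at 54.8% and PEP1_S100a11.Tagln2 at 44.2%. The order of close pairs was not the same at 5000 UMIs per cell. There Th (97%) was above NF2_Ntrk2.Necab2 (91.4%), NP_Mrgprd (66.4%) above NF_Pvalb (58.4%) and PEP1_Dcn (30.1%) above PEP1_S100a11.Tagln2 (26.5%). The thinning was not repeated with another seed, so the parts of depth and of the random draw were not separated.

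PEP1_Dcn combined cells without Piezo2 and cells with much of it. Its 163 cells included 77 with 0 Piezo2 UMIs, 23 with 1 to 4, 20 with 5 to 9 and 43 with 10 or more, and the highest cell held 62. The tenth of cells with the most Piezo2 held 50.1% of the type's Piezo2 UMIs, against 25.7% in NP_Mrgpra3, a type with a similar mean of 7.27 UMIs per cell (7.03 in PEP1_Dcn) and no cell at 0. Cells with 10 or more were present in libraries 2, 3, 4 and 5 (15, 6, 4 and 18 cells), while the 4 cells of library 1 all held 0. Without library 1 the mean level in PEP1_Dcn was 122 CPM in place of 97.8. What separates the cells with and without Piezo2 in this type was not tested.

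**Figure D2:**
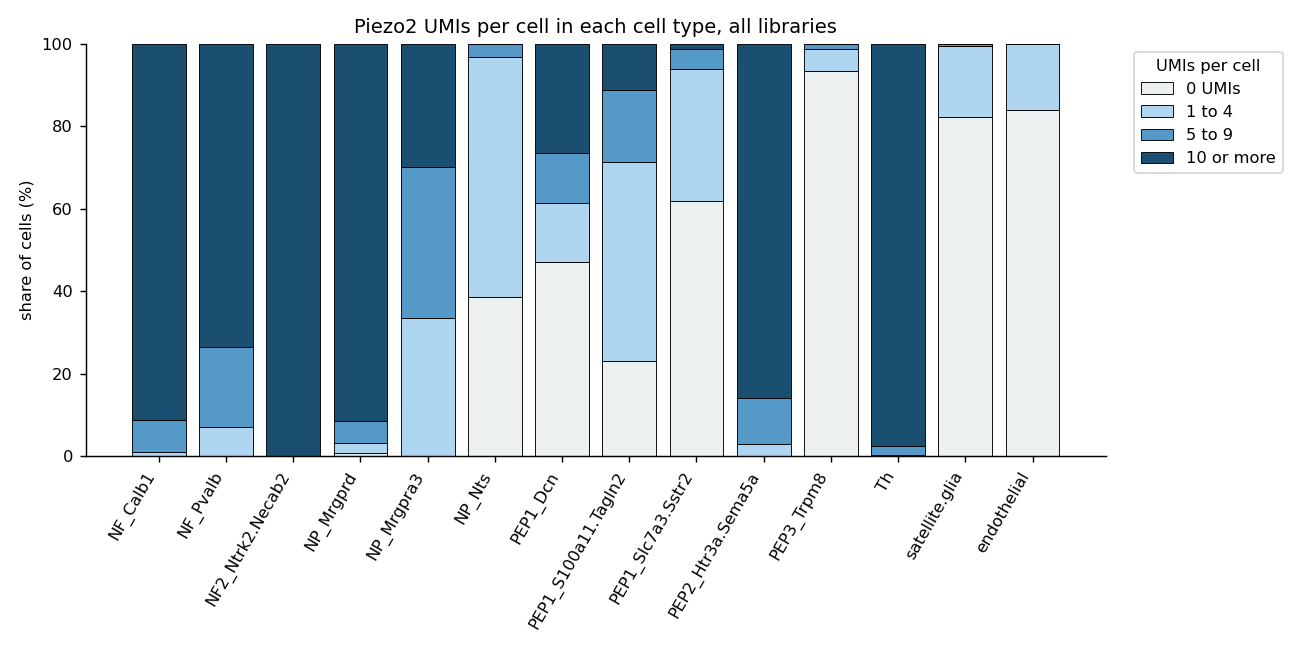
Share of cells (%) of each type with 0, 1 to 4, 5 to 9 and 10 or more Piezo2 UMIs, over all libraries. All 58 cells of NF2_Ntrk2.Necab2 held 10 or more, whereas PEP1_Dcn combined 47.2% of cells at 0 with 26.4% at 10 or more.

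Piezo1, the flow-sensing channel of vessels, had 347 UMIs in all, of which 114 lay in the 56 endothelial cells and 160 in the 400 cells of NP_Nts. Endothelial levels were 103, 132, 99.7, 144 and 111 CPM in libraries 1 to 5, a mean of 118 ± 19.3. The second highest type was NP_Nts, with 8.77, 6.17, 9.71, 7.6 and 7.1 CPM, a mean of 7.87 ± 1.39. The lowest endothelial library lay above the highest of every other type, and NP_Nts lay above satellite glia (2.77 ± 2.01 CPM) in 5 of 5 libraries. All remaining types were under 1 CPM and did not differ from their neighbours beyond the spread.

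No Piezo1 UMI was found in NF_Pvalb, NF2_Ntrk2.Necab2 or PEP1_Dcn. Taking 3 counts over the whole type as the limit that 0 allows, Piezo1 was at least 19.1-fold higher in NP_Nts than in NF_Pvalb, at least 14.3-fold higher than in NF2_Ntrk2.Necab2 and at least 22-fold higher than in PEP1_Dcn. Th held 1 UMI, and the ratio of NP_Nts to Th was 104 (exact 95% interval 18.5 to 4151, counting error only). Among neurons Piezo1 was thus detectable mainly in a single NP type.

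By cells, a Piezo1 UMI was found in 48 of 56 endothelial cells (85.7%, 95% Clopper-Pearson interval 73.8 to 93.6%, counting error only, median depth 16889) and in 131 of 400 NP_Nts cells (interval 28.2 to 37.6%, median depth 53136). In NP_Mrgprd the share was 4% at a median depth of 105150, and in satellite glia 4.02%. After thinning to 10000 UMIs per cell the shares were 69.6% in endothelial cells, 6.25% in NP_Nts, 2.81% in satellite glia and 0% in NP_Mrgprd. NP_Nts thus stayed above the deeper NP_Mrgprd cells with and without thinning.

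In NP_Nts the 6 endothelial markers summed to 4.38, 10.4, 4.85, 3.87 and 6.99 CPM, with Pecam1 the most abundant at 3.62 CPM and Cdh5 and Kdr at 0. Red blood cells, which also carry Piezo1 and stomatin, left markers in endothelial libraries 3 and 4 (sums of 4800 and 16667 CPM) and 0 CPM in libraries 1 and 5. Library 2 held 9.92 CPM of them. Library 4 was highest in these markers, in endothelial Piezo1 (144 CPM) and in Stom (228 CPM), whereas library 2, with few markers, was second in Piezo1 (132 CPM) and Stom (205 CPM), and library 3 was lowest in Piezo1 (99.7 CPM). The part of red blood cells in these levels was not tested. At its 3′ end Piezo1 overlaps Ctu2, which lies on the other strand. Ctu2 did not follow the pattern of Piezo1, with its highest level in PEP3_Trpm8 (23 ± 5.05 CPM) and 14.5 ± 2.77 in NP_Nts, 15 ± 8.15 in endothelial cells and 19.6 ± 2.03 in NP_Mrgprd. Whether the counts separated the strands there was not tested.

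Stom, the membrane protein stomatin, shared its highest types with Piezo1. In endothelial cells it was at 103, 205, 118, 228 and 166 CPM, a mean of 164 ± 54. In NP_Nts it was at 55.5, 94.9, 99.7, 69.9 and 76.3 CPM, a mean of 79.3 ± 18.2, below endothelial cells in each library. The NP_Nts level was 2.61 times that of the next neuron type, PEP1_S100a11.Tagln2 at 30.4 ± 8.09 CPM, with no overlap between their libraries.

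From there Stom fell in steps to PEP1_Slc7a3.Sstr2 (17.3 ± 4.33 CPM), NP_Mrgpra3 (14 ± 3.33), NP_Mrgprd (12.7 ± 0.731), satellite glia (8.84 ± 4.05), PEP1_Dcn (8.06 ± 5.61) and PEP2_Htr3a.Sema5a (7.85 ± 1.49), and no neighbours in this run differed beyond their spread. NF_Calb1 followed at 3.52 ± 1.83 CPM, PEP3_Trpm8 at 2.32 ± 1.1, NF_Pvalb at 1.05 ± 1.13, NF2_Ntrk2.Necab2 at 0.863 ± 0.856 and Th at 0.381 ± 0.452. Th, the type with the most Piezo2, thus had the lowest mean of Stom, but neighbours among the last 3 types did not differ beyond the spread.

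A Stom UMI was found in 385 of 400 NP_Nts cells and in 4 of 232 Th cells, which had similar median depths of 53136 and 56281 UMIs. At 10000 UMIs per cell the share was 75% in endothelial cells, 51.2% in NP_Nts, 25.4% in PEP1_S100a11.Tagln2, 11.8% in NP_Mrgprd and 10.4% in satellite glia. In Th it was 0.862%, under the glial value.

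Tmem63a, a stretch- and osmolarity-gated channel, had its highest levels in 2 of the NP types. It was highest in NP_Nts at 38, 27.5, 30.4, 31.5 and 27.5 CPM (31 ± 4.29), followed by NP_Mrgpra3 at 27.4, 28.8, 15.9, 12.3 and 20.9 CPM (21.1 ± 7.12). NP_Nts was the higher of these types in 4 of 5 libraries, and the mean difference of 9.92 CPM was larger than its SD of 7.8. PEP1_S100a11.Tagln2 at 15.6 ± 5.3 CPM, NP_Mrgprd at 11.7 ± 0.921, endothelial cells at 8.83 ± 8.69 and satellite glia at 8.3 ± 4.28 came next and overlapped. Every other type stayed at or below 2.24 CPM.

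In the NF types Tmem63a was close to absent at this depth. NF_Pvalb held 0 UMIs, so the level in NP_Nts was at least 74.9-fold higher, again from 3 counts over the type. The 8 UMIs of NF_Calb1 all came from 1 cell of library 2, which held 268 Calca, 254 Nefh and 0 Mrgprd UMIs at a depth of 79709 UMIs, near the type's median of 77900. NF2_Ntrk2.Necab2 held 1 UMI. At 10000 UMIs per cell the share of cells with Tmem63a was 26.5% in NP_Nts, 16.6% in PEP1_S100a11.Tagln2, 13.5% in NP_Mrgpra3, 11.8% in NP_Mrgprd, 7.23% in satellite glia and 14.3% in endothelial cells, so that NP_Nts was above both non-neuronal types and NP_Mrgpra3 was not above endothelial cells.

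Tmem63b, its close relative, had the reverse preference, and UMIs of it were found in all types. NF_Pvalb was highest at 291, 357, 264, 272 and 288 CPM, a mean of 294 ± 36.6, and its lowest library lay above every library of the other 13 types. Th at 195 ± 19.2 CPM, NF_Calb1 at 184 ± 24.1 and NF2_Ntrk2.Necab2 at 183 ± 18.4 formed a second level whose neighbours overlapped, followed by PEP2_Htr3a.Sema5a at 130 ± 19.4. The remaining PEP types, NP_Mrgpra3 and NP_Mrgprd lay between 72.8 and 96.9 CPM and their neighbours in the order did not differ beyond the spread. NP_Nts, the top type of Tmem63a, was the lowest neuron type for Tmem63b at 53.3 ± 9.81 CPM, next to satellite glia at 48.9 ± 10.4, and endothelial cells were lowest of all at 13.5 ± 4.76. A Tmem63b UMI was found at 10000 UMIs per cell in 90.3% of NF_Pvalb, 35.3% of satellite glia and 10.7% of endothelial cells. Endothelial cells held 12 Tmem63b UMIs in all, and the neuron markers summed to a mean of 491 CPM there and 446 CPM in satellite glia. The part of neuronal RNA in the Tmem63b of these cells was not tested.

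Tmem150c, tentonin 3, split the neurons into a broad high group and a small low group. The high group ran from NF_Calb1 at 48.7, 61.5, 57.2, 46.4 and 54 CPM (53.6 ± 6.17) through PEP1_Dcn (52.8 ± 9.51), PEP2_Htr3a.Sema5a (50 ± 4.62), NF_Pvalb (48.1 ± 9.97) and NP_Mrgpra3 (47.8 ± 9.28) to Th (42.9 ± 5.49), NF2_Ntrk2.Necab2 (36.4 ± 6.77), PEP1_S100a11.Tagln2 (30.8 ± 7.21) and NP_Mrgprd (30.7 ± 3.1). Within it the rank of NF_Calb1 was not fixed, since 4 different types were highest in 1 library or another. Then came a step of 3.66 times down to NP_Nts at 7.31, 10.4, 9.27, 6.77 and 8.1 CPM (8.38 ± 1.49), with PEP1_Slc7a3.Sstr2 at 8.33 ± 1.88 and PEP3_Trpm8 at 6.27 ± 2.4. Satellite glia with 10 UMIs (1.45 ± 2.33 CPM) and endothelial cells with 2 (1.48 ± 3.3 CPM) had almost none. At equal depth the share of cells with Tmem150c was 43.9% in NF_Calb1 and 2.41% in satellite glia.

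**Figure D3:**
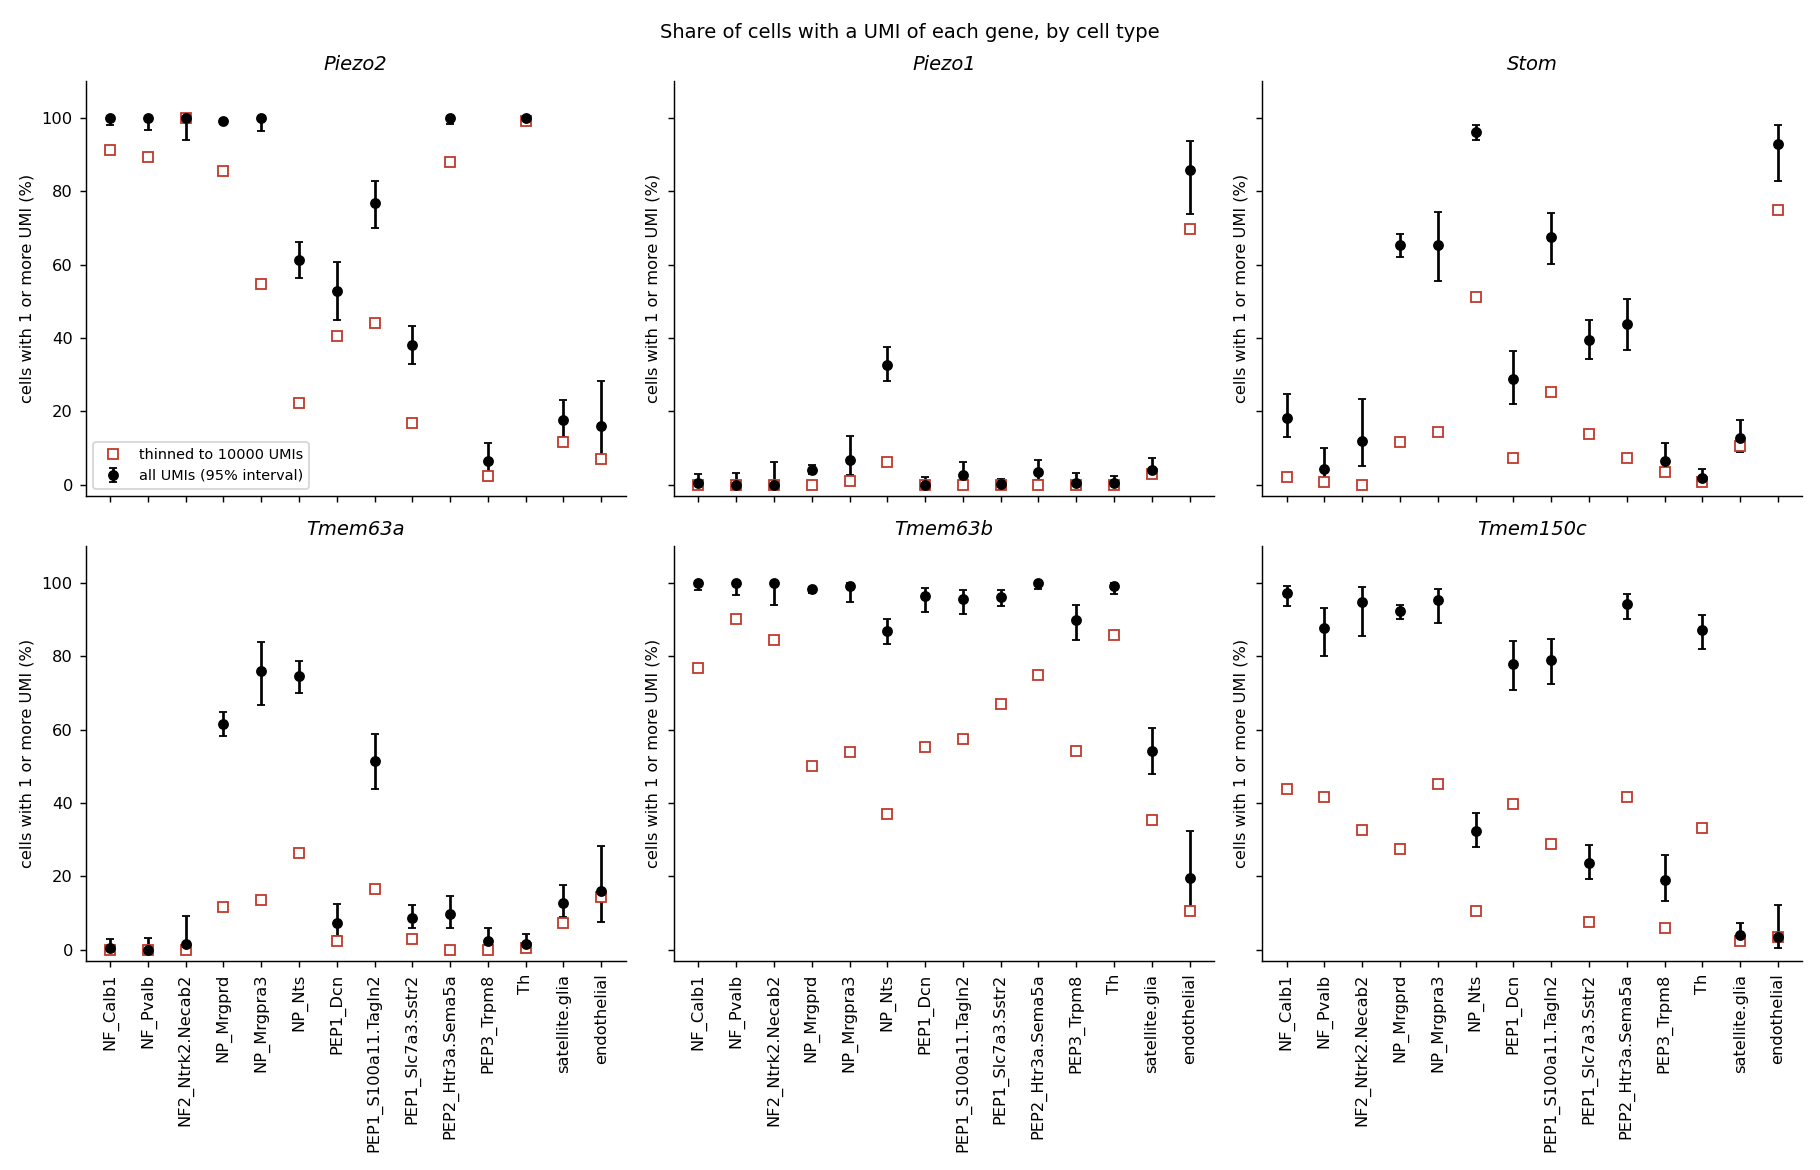
Share of cells (%) with at least 1 UMI of each gene in 14 types, from all UMIs (black, bars are 95% Clopper-Pearson intervals) and after thinning each cell to 10000 UMIs (open squares). After thinning, Piezo2 was found in 99.1% of Th and 11.6% of satellite glia cells, and Stom in 75% of endothelial and 0.862% of Th cells.

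Classes of types were then compared with edgeR's quasi-likelihood test over 11886 genes, and a gene was called when its Benjamini-Hochberg adjusted p was under 0.01 and the difference was at least 2-fold. The difference is that of the log2 levels averaged over the types of each class, so a type near 0 weighs as much as a type with a high level. The authors made the types from these same counts, so each test describes their clusters and is not independent evidence of them.

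The question of which genes are neuronal was addressed with the 12 neuron types against satellite glia. Here 2 of 6 genes were called higher in neurons (24.9% of all genes tested were called higher) and 2 lower (25.8% of all genes). Piezo2 averaged 217 ± 16.1 CPM over the neuron types and 12.9 ± 4.51 in glia, a log2 difference of 2.69 ± 0.29 (SE), and Tmem150c had one of 3.37, both higher in neurons in 5 of 5 libraries. Without library 3, which held most of the few glial Tmem150c UMIs, that difference was 5.14. Piezo1 and Tmem63a were called lower in neurons, with log2 differences of -3.61 and -2.38, each in 4 of 5 libraries. Both rested on the types near 0. The plain means of Piezo1 were 0.864 CPM over neurons and 2.77 CPM in glia, with NP_Nts above glia in 5 of 5 libraries. Those of Tmem63a were 7.21 and 8.3 CPM, with NP_Nts, NP_Mrgpra3, PEP1_S100a11.Tagln2 and NP_Mrgprd above glia in the mean. The glial side of Piezo1 was 10 UMIs. In satellite glia the 6 endothelial markers summed to 7.56, 118, 6.24, 5.54 and 26 CPM, and red blood cell markers to 817 CPM in library 2. The part of these cells in glial Piezo1 was not tested. Stom (-0.78) and Tmem63b (0.91) were not called, but both were without library 4, with -1.14 and 1.05, and Tmem63b was also called by DESeq2, with 1.01. The plain means of Stom ran against its fitted sign, at 14.8 CPM over neurons and 8.84 CPM in glia, with neurons higher in 4 of 5 libraries.

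Against endothelial cells all 6 genes were called, 3 higher in neurons (28.9% of all genes) and 3 lower (21.4%). The balance over all genes depended on the scaling, with 3431 higher and 2546 lower here, 2783 and 2888 with upper quartile factors and 2892 and 2755 with DESeq2. The higher ones were Piezo2 (3.10), Tmem63b (3.04) and Tmem150c, which had only 2 endothelial UMIs and is given no fitted difference. Without library 2 the difference of Piezo2 was 3.99. Piezo1 was lower in neurons by far, at 0.864 ± 0.162 against 118 ± 19.3 CPM, in 5 of 5 libraries. Its fitted log2 difference of -9.11 is larger than these means give, because 3 of the 12 neuron types held 0 Piezo1 UMIs and 4 held 1. Stom followed at -4.93, also in 5 of 5 libraries. Tmem63a was called lower at -2.82, although its plain means were 7.21 and 8.83 CPM and only 3 of 5 libraries were higher in endothelial cells.

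Among neurons, the NF types, which as background have myelinated axons, were set against the NP types, mostly small unmyelinated nociceptors and itch neurons. Here 2 genes were higher in NF (18.1% of all genes) and 3 lower (14.5%), so that the genes divided between the classes. The split over all genes depended on the scaling, with 2155 higher and 1718 lower here and 2762 and 1396 with DESeq2. Piezo2 averaged 348, 360, 391, 362 and 360 CPM over the NF types and 92.5, 104, 102, 105 and 106 CPM over the NP types. These class averages did not overlap, and 5 of 5 libraries were higher in NF. The log2 difference was 2.12 ± 0.14 (SE), with an adjusted p of 1.29e-22 in edgeR's quasi-likelihood test with Benjamini-Hochberg adjustment. Single types did overlap, as NP_Mrgprd (212 CPM) lay above NF_Pvalb (201 CPM) in 4 of 5 libraries. NP_Mrgpra3 (72.7 CPM) and NP_Nts (20.8 CPM) lay below all NF types. Tmem63b was higher by 1.53, at 221 ± 16.6 against 69.6 ± 4.61 CPM.

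On the other side, Stom averaged 2.31, 2.02, 1.3, 1.69 and 1.73 CPM in NF and 28.3, 41.4, 40.8, 31.8 and 34.3 CPM in NP, a log2 difference of -4.06 ± 0.22 (SE) with an adjusted p of 4.78e-27 in edgeR's quasi-likelihood test with Benjamini-Hochberg adjustment, lower in NF in 5 of 5 libraries. Tmem63a was lower by a fitted -6.92, and by -8.08 without library 2, the library with the single NF_Calb1 cell described above. Piezo1 was called lower too, and with 1 UMI in NF against 206 in NP the ratio of NP to NF was 47.2 (exact 95% interval 8.37 to 1872, counting error only) from UMIs pooled over the types, where NP_Mrgprd weighs most, and 178 from the means over types. Tmem150c, at 46 ± 2.99 against 29 ± 3.97 CPM, was higher in NF in 5 of 5 libraries but under 2-fold (0.84), and DESeq2 called it, with 1.04.

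Against the PEP types, which release neuropeptides such as CGRP, NF types were higher for 3 genes (11.3% of all genes) and lower for 2 (12.9%). Over all genes this balance turned with the scaling, at 1346 higher and 1535 lower here and 1579 and 1445 with DESeq2. Piezo2 had a log2 difference of 2.75, at 364 ± 15.9 against 98 ± 24.1 CPM, and Tmem63b one of 1.13. The fitted Piezo2 difference is larger than these means give, with PEP3_Trpm8 at 3.61 CPM weighing as much as each other PEP type. By type, PEP2_Htr3a.Sema5a (293 CPM) lay above NF_Pvalb (201 CPM) in every library. The other PEP types lay below all NF types in the mean. Tmem150c passed the 2-fold limit narrowly at 1.04 and no longer did so without library 1 (0.98). In the mean, PEP1_Dcn (52.8 CPM) and PEP2_Htr3a.Sema5a (50 CPM) held more of it than NF_Pvalb (48.1 CPM) and NF2_Ntrk2.Necab2 (36.4 CPM). PEP1_S100a11.Tagln2 (30.8 CPM), PEP1_Slc7a3.Sstr2 (8.33 CPM) and PEP3_Trpm8 (6.27 CPM) lay below all NF types. Stom (-2.65) and Tmem63a (-3.76, and -4.94 without library 2) were lower in NF in all 5 libraries.

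Th neurons, also unmyelinated but tuned to gentle touch, differed from the NP types in the same genes as NF did: 2 were called higher (12.9% of all genes) and 3 lower (8.91%). Piezo2 was higher by 3.24 ± 0.17 (SE) and Tmem63b by 1.42. Stom, at 0.381 ± 0.452 against 35.3 ± 5.7 CPM, was lower by -5.77, Tmem63a by -5.67, and Piezo1, with 1 UMI in Th, had a pooled ratio of NP to Th of 23.3 (exact 95% interval 4.13 to 924, counting error only), or 67.8 from the means over types. As this comparison and the former one share the NP types, their differences are not independent.

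**Figure D4:**
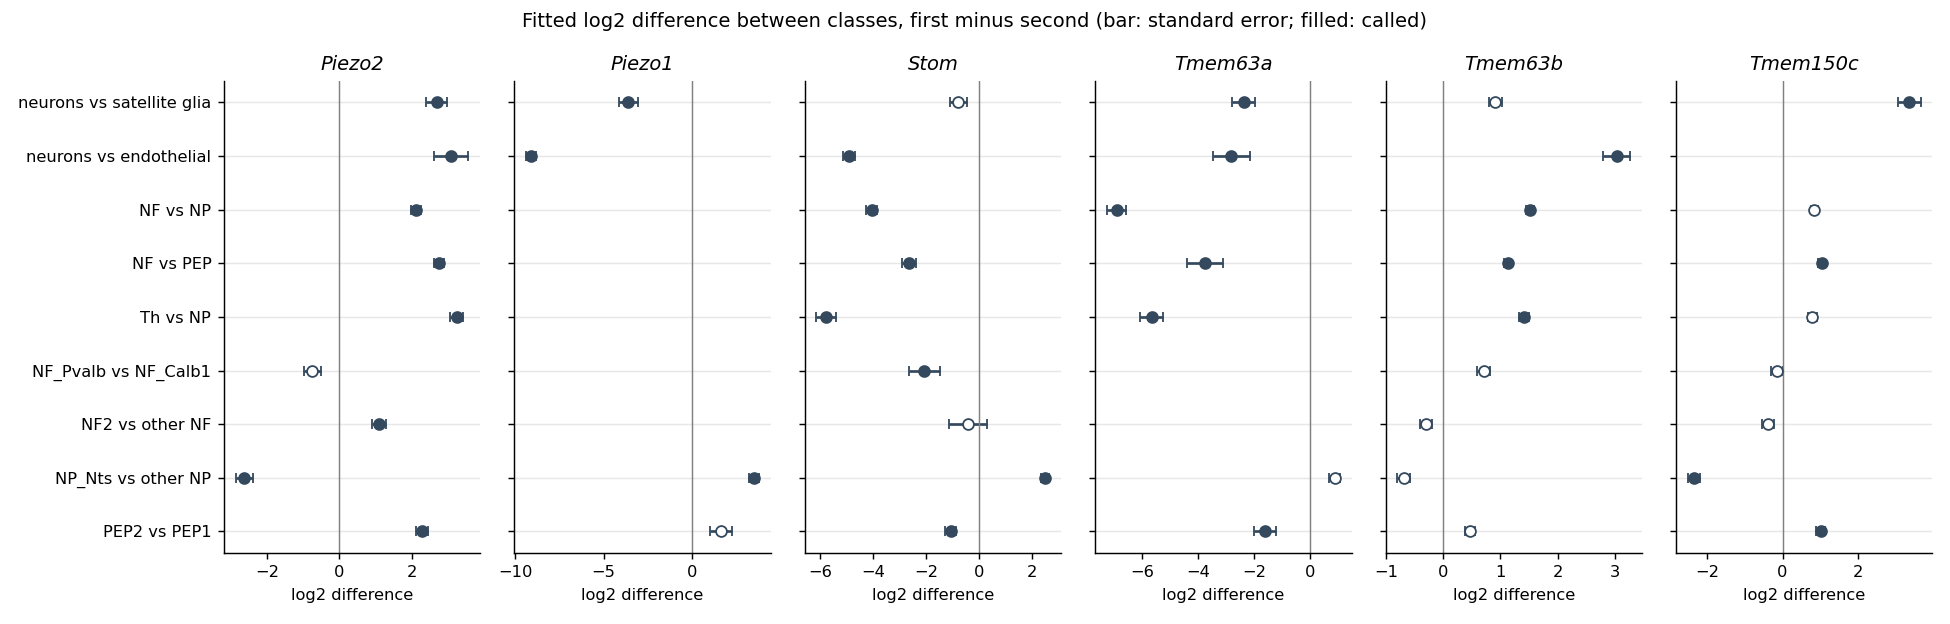
Fitted log2 difference (first minus second class) of 6 genes in 9 comparisons, with bars for the standard error and filled points for called genes. Points are left out where a class had 3 or fewer UMIs. Piezo2 lay at 2.12 and Stom at -4.06 for NF against NP, and at -2.63 and 2.48 for NP_Nts against the other NP types.

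Within the NF class, NF_Pvalb was compared with NF_Calb1: 0 genes were called higher (4.37% of all genes) and 1 lower (7.26%). The gene called lower was Stom at -2.07, from 6 against 54 UMIs, with an adjusted p of 0.00526 in edgeR's quasi-likelihood test with Benjamini-Hochberg adjustment and 4 of 5 libraries in that direction. That call was lost without library 2 (-1.70, adjusted p 0.0530 in edgeR's test) and without library 5 (-1.24, adjusted p 0.216), while without library 4 the difference was -3.38. Piezo2 was lower in NF_Pvalb in 5 of 5 libraries (-0.75) and Tmem63b higher in 5 of 5 (0.71), both under 2-fold.

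NF2_Ntrk2.Necab2 against the other NF types gave 1 gene called higher (5.98% of all genes) and 0 lower (8.46%). This was Piezo2, at 523, 504, 627, 545 and 532 CPM against 260, 289, 273, 270 and 275 CPM, without overlap. Its log2 difference was 1.10 ± 0.19 (SE), with an adjusted p of 2.44e-06 in edgeR's quasi-likelihood test with Benjamini-Hochberg adjustment and 5 of 5 libraries higher. Tmem63b (-0.31) and Tmem150c (-0.39) were not called, with adjusted p of 0.0154 (5 of 5 libraries below) and 0.0433 (4 of 5) in edgeR's quasi-likelihood test with Benjamini-Hochberg adjustment.

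NP_Nts stood apart from NP_Mrgprd and NP_Mrgpra3 in 4 of the 6 genes, 2 called higher (8.47% of all genes) and 2 lower (8.51%). Piezo1 was at 7.87 ± 1.39 CPM against 0.6 ± 0.394, a log2 difference of 3.48 ± 0.28 (SE) with an adjusted p of 1.70e-16 in edgeR's quasi-likelihood test with Benjamini-Hochberg adjustment, higher in 5 of 5 libraries. Stom, at 79.3 ± 18.2 against 13.4 ± 1.42 CPM, was higher by 2.48. Piezo2, at 11.7, 32.7, 15, 21.1 and 23.2 CPM against 133, 140, 146, 147 and 147 CPM, had a log2 difference of -2.63 ± 0.24 (SE), and Tmem150c one of -2.35. These itch-type neurons thus had less of Piezo2 and Tmem150c and more of Piezo1 and Stom than the other NP types in every library. Tmem63a (0.86) and Tmem63b (-0.69) differed in opposite directions in 5 of 5 libraries, each under 2-fold.

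PEP2_Htr3a.Sema5a against the 3 PEP1 types gave 2 genes called higher (11% of all genes) and 2 lower (7.34%). Piezo2 was at 237, 332, 309, 271 and 314 CPM against 27.9, 95.1, 61.6, 51.4 and 86.5 CPM. The classes did not overlap, and the log2 difference was 2.29 ± 0.18 (SE). Stom was lower by -1.07 (-0.90 without library 3, no longer 2-fold) and Tmem63a by -1.61. Tmem63a was at 15.6 CPM in PEP1_S100a11.Tagln2, 2.24 in PEP1_Slc7a3.Sstr2 and 1.75 in PEP1_Dcn, against 1.24 in PEP2_Htr3a.Sema5a. For both genes PEP1_Dcn did not differ from PEP2_Htr3a.Sema5a beyond the spread (Stom 8.06 and 7.85 CPM). Tmem150c was higher by 1.01. That value fell under 2-fold with upper quartile scaling (0.96), with no filter on low counts (0.99) and with sums of at least 10 cells only (0.98). It also did so without library 1 (0.90), 4 (0.98) or 5 (0.92). By type, PEP1_Dcn (52.8 CPM) did not differ from PEP2_Htr3a.Sema5a (50 CPM) beyond the spread. PEP1_S100a11.Tagln2 (30.8 CPM) and PEP1_Slc7a3.Sstr2 (8.33 CPM) were lower in the mean.

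Across the 14 types, Piezo2, Tmem63b and Tmem150c varied together, at Pearson correlations of log2 levels of 0.746 for Piezo2 with Tmem63b, 0.799 for Piezo2 with Tmem150c and 0.801 for Tmem63b with Tmem150c. Among Piezo1, Stom and Tmem63a the values were 0.775 for Piezo1 with Stom, 0.75 for Stom with Tmem63a and 0.392 for Piezo1 with Tmem63a. The 9 pairs that join a gene of the first 3 with one of the others were all negative, from -0.860 for Piezo1 with Tmem63b to -0.273 for Tmem63a with Tmem150c. Over the 12 neuron types alone Piezo1 with Stom was at 0.740, Stom with Tmem63a at 0.884 and Piezo1 with Tmem63a at 0.737, while Piezo2 with Tmem63b was at 0.687, Piezo2 with Tmem150c at 0.786 and Tmem63b with Tmem150c at 0.574. How alike the genes were thus depended on the types taken. These are descriptions over types that share libraries, without a p.

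In single cells, Piezo1 and Stom UMIs were found together in 45 of 56 endothelial cells and in 125 of 400 NP_Nts cells. As 385 of the NP_Nts cells held Stom, most cells with Piezo1 had to hold both. Stom and Tmem63a were found together in 290 NP_Nts cells. Depth per cell enters each of these counts, and the part of RNA from other cells in them was not tested.

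How much a gene kept to few types was measured with tau, which is 0 for an even level and 1 for a single type. Tau was 0.915 for Piezo1 (above 96.3% of 11124 genes), 0.642 for Tmem63a (84.4%), 0.602 for Stom (82.6%), 0.378 for Piezo2 (67.9%), 0.281 for Tmem150c (56.3%) and 0.218 for Tmem63b (43.3%). Piezo1 was the most restricted of the 6 and Tmem63b the most even, below the median of all genes at 0.248.

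The genes whose pattern was most like each of the 6 were sought by Pearson correlation of the mean log2 level over the 14 types, among 11124 genes with at least 10 CPM in a type. For Piezo1 they were Gpr4 (0.988), Gm694 (0.969), Csf2rb2 (0.966), Podxl (0.963) and Sorbs3 (0.952), all highest in endothelial cells and, among neurons, in NP_Nts. For Stom they were Sema4c (0.902), Gch1 (0.893), Bcl3 (0.883), Pdlim5 (0.879) and Rbm18 (0.873), all highest in endothelial cells. For Tmem63a they were Cd82 (0.962), Lgals3 (0.917), Carhsp1 (0.916), Slc31a2 (0.904) and Fmo5 (0.895), all highest in NP_Nts.

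Piezo2 was closest to Bcl2l13 (0.941), Smc4 (0.926), Asap1 (0.924), Kcnd1 (0.915) and Ankrd27 (0.908), of which Asap1, like Piezo2, was highest in Th. Tmem63b was closest to Chm, Inpp5e, Purg, Srgap3 and Dpp9 (0.956 to 0.962), and Tmem150c to Gys1, Atp6v1a, Mea1, Rap1gds1 and Angel1 (0.939 to 0.961). The names depended on the measure. With Spearman's correlation 0 of the 5 were kept for Piezo1 and Tmem63b, 1 for Tmem150c, 2 for Piezo2 and Stom and 3 for Tmem63a.

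Other genes tied to mechanical sensing were taken from a list of 41, of which 39 were counted and 32 tested. Among regulators and relatives, Mdfic, which binds Piezo channels and changes their inactivation, was at similar levels in satellite glia (21.1 ± 5.19 CPM) and endothelial cells (20.8 ± 9.12), and its relative Mdfi was highest in endothelial cells (58.3 ± 27.7). Stoml1, a relative of stomatin, was highest in NP_Mrgprd at 207 ± 13.6 CPM, and Tmem63c in NP_Nts at 22.2 ± 4.32. The acid-sensing channel genes divided the neurons, with Asic1 highest in NF_Pvalb (189 ± 29.9 CPM), Asic2 in NF2_Ntrk2.Necab2 (88.3 ± 22.2) and Asic3 in PEP2_Htr3a.Sema5a (248 ± 55.3). Whrn, a scaffold protein known from hair cells and proprioceptors, was highest in NF_Pvalb at 122 ± 29.2 CPM, and Cacna1h, the T-type calcium channel of low-threshold touch receptors, in NF2_Ntrk2.Necab2 at 130 ± 16. The stretch-activated potassium channel gene Kcnk2 was highest in PEP1_Dcn at 196 ± 23.2 CPM. The highest type thus differed from gene to gene.

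Counted over the comparisons, 10 of these 32 genes were higher and 8 lower in neurons than in satellite glia (24.9% and 25.8% of all genes), with a median log2 difference of 0.75 (0.79 with sparsely counted genes at their bound) against 0.11 over all genes. Against endothelial cells 8 were higher and 4 lower (28.9% and 21.4% of all genes), and here the median depended on the sparse genes, at 1.85 as fitted and 0.63 with them at their bound, against 0.60 over all genes. In NF against NP 7 were higher and 3 lower (18.1% and 14.5% of all genes, median 0.50, or 0.56 at the bound, against -0.02), among them Asic1 at 5.66 and Atp2a2, a calcium pump reported to bind Piezo1, at 2.18, with Trpc6 at -5.80. In Th against NP 6 were higher and 5 lower (12.9% and 8.91% of all genes), with Cacna1h at 7.10, Asic1 at 6.40 and Trpv4 at 6.36 among the higher ones (median -0.06, or 0.00 at the bound, against 0.01).

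In the narrower comparisons, NF_Pvalb against NF_Calb1 gave 3 higher and 5 lower (4.37% and 7.26% of all genes), with Whrn at 7.92, Asic1 at 2.04 and Asic3 at -2.07 among them. NF2_Ntrk2.Necab2 against the other NF types gave 4 higher and 5 lower (5.98% and 8.46%), led by Cacna1h at 6.25 and Asic1 at -6.93. NF against PEP gave 3 higher and 5 lower (11.3% and 12.9%), with Kcnk2 at -4.54. In NP_Nts 1 was higher than in the other NP types, Kcnk2 at 3.18, and 6 were lower (8.47% and 8.51%). In PEP2_Htr3a.Sema5a 6 were higher than in PEP1, with Asic1 at 2.97 and Asic3 at 2.78, and 1 was lower, Kcnk2 at -2.37 (11% and 7.34%). In these 5 comparisons the list's medians, in the order given, were -0.24, -0.26, -0.10, -0.25 and 0.43, and those of all genes -0.03, -0.09, -0.05, 0.02 and 0.06. With sparse genes at their bound the list's medians were -0.11, -0.18, 0.03, -0.18 and 0.49, so that the sign turned in NF against PEP and NF_Pvalb against NF_Calb1 came closer to all genes.

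In the mouse genome (GRCm38.p6, RefSeq) the 6 genes lay on 6 chromosomes: Tmem63a at chr1:180942286-180975106, Stom at chr2:35313990-35337009, Tmem150c at chr5:100077872-100165607, Piezo1 at chr8:122481698-122551329, Tmem63b at chr17:45660172-45686343, with Piezo2 on a chromosome of its own. Tmem63a was on the plus strand and the others on the minus strand. No 2 of them were neighbours.

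Piezo1, Stom and Tmem63a were the genes with NP_Nts as their highest neuron type, so their promoters are shown, each a RefSeq window of 300 bases in GRCm38.p6, mostly upstream of a gene start, 5′ to 3′ on the gene's strand. For Tmem63a the start used lies inside the outer bounds of the gene given above. Capitals mark matches, on either strand, to the GC box (GGGCGG), the CCAAT box (CCAAT), the TATA box (TATAAA) and the core that RUNX factors bind (TGTGGT). Of 32851 mouse promoters of this length, 35.7% held the GC box, 37.4% the CCAAT box, 13.6% the TATA box and 16.8% the RUNX core. The windows are chr8:122551280-122551579 for Piezo1 (minus strand, 75% G and C), chr2:35336960-35337259 for Stom (minus strand, 63.3%) and chr1:180942268-180942567 for Tmem63a (plus strand, 65%).
Piezo1: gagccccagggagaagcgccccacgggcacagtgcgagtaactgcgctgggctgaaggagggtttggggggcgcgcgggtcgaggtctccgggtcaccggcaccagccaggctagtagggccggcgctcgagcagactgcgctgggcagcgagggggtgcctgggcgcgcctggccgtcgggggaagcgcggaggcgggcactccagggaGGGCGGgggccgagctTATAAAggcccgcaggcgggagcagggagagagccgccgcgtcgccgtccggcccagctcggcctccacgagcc
Stom: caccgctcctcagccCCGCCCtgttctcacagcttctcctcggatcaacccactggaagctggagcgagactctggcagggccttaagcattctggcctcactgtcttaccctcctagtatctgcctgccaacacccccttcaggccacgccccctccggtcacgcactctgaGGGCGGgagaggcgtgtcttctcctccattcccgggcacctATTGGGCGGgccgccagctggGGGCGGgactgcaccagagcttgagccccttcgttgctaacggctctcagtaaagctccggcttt
Tmem63a: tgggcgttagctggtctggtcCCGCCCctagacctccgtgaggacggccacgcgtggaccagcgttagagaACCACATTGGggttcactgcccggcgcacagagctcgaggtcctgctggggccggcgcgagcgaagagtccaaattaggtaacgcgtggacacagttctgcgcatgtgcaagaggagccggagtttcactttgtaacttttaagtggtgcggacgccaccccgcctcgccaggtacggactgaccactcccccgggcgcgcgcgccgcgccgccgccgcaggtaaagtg
Piezo1 held 1 GC box and a TATA box (TATAAA), Stom held 4 GC boxes and 1 CCAAT box, the latter on the other strand and overlapping a GC box in ATTGGGCGG, and Tmem63a held 1 GC box and, overlapping in ACCACATTGG, 1 RUNX core and 1 CCAAT box, all on the other strand. No motif was found in all 3 except the GC box, which was also present 3 times in the promoter of Tmem63b. A match is a description, not a site or a cause.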

How the data were processed

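The authors deposited UMI counts, and the unit count was used as given, for 3352 cells and 17267 genes; they had aligned reads to mm10 with Cell Ranger 2.0.0 and clustered with Seurat 3.0.1. A further 4 entries name no gene and held 143 UMIs (6.37e-05% of all), and genes were matched by the symbol before the position suffix. NF_Calb1 is spelled NF_Ca1b1 in the annotation. The library ids in the cell names are not named in the sample descriptions, so libraries were numbered 1 to 5 in sorted order. Cell types of a library come from the same mouse; deviations from the type mean correlated at 0.109 on average within a library (-0.0339 to 0.451) and at -0.0263 between libraries. No cell was removed: all had at least 10000 UMIs, 7 barcodes were shared by more than 1 library, no doublet caller was run, and some cells of every type exceeded 10% mitochondrial UMIs as computed from 37 mitochondrial entries (43 in NP_Mrgprd, the most).

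For every library, the cells of a type were pooled by adding their UMIs (70 sums), and these were compared with edgeR 4.0.16 (R 4.3.3) after its filter on low counts. Alternatives were a fit with library as block, DESeq2 1.42.0, upper quartile scaling, no filter, sums of at least 10 cells, adjusted p under 0.05 without a fold limit, and leaving out each library. Levels were also taken as means over cells, with TMM scaling and with cells of at most 10% mitochondrial UMIs; likeness was also measured with Spearman's correlation and over 12 neuron types. Thinning used seed 7, to 10000 and also 5000 UMIs. Intervals are 95%, and the floor for 0 was 3 counts. Python 3.11.15, numpy 2.4.6 and scipy 1.17.1 were used. Some listed genes are not reported here. The genes and lists were chosen with earlier results of these data known.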

Additional observations from a re-analysis of the deposited data

Results flagged for a closer look

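Tmem63b in PEP3_Trpm8 was 60.1 CPM in library 1, against 80.7 to 89.0 CPM in the other 4 libraries; the gap to the nearest library was 0.712 of the whole range, and Dixon's limit for 5 values is 0.71. This was 1 of 57 groups of at least 25 UMIs examined, and chance alone gives about 1 in 20 groups. The library was kept, and the cause was not tested.

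The count table also holds 4 entries that name no gene: EC18 with 86 UMIs, SV40 with 34, LacZ with 12 and PGK with 11. They drew attention because such names belong to introduced sequences while the mice are described as wild type. They were not analysed further, and their origin was not tested.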

How the results depend on the processing

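Taking library as a block changed no call of the 6 genes. Over all genes the counts moved somewhat, for NF_Pvalb against NF_Calb1 from 520 higher and 863 lower to 550 and 883. Of the log2 differences over all alternatives, 480 kept their sign and their call, whatever their size, 15 gained a call, 10 lost it and 1 reversed its sign: Stom in NF2_Ntrk2.Necab2 against other NF was 0.0684 with sums of at least 10 cells (-0.42 in the chosen analysis, not called). Calls lost were Stom in NF_Pvalb against NF_Calb1 (-2.07) without library 2 (-1.70) and 5 (-1.24), Stom in PEP2 against PEP1 (-1.07) without library 3 (-0.90), Tmem150c in NF against PEP (1.04) without library 1 (0.98), and Tmem150c in PEP2 against PEP1 (1.01) with upper quartile scaling (0.96), no filter (0.99), sums of at least 10 cells (0.98) and without libraries 1, 4 and 5 (0.90, 0.98, 0.92). DESeq2 called Tmem150c in NF against NP (1.04) and Tmem63b in neurons against glia (1.01); without library 4 Stom (-1.14) and Tmem63b (1.05) were called against glia. Without a fold limit and at adjusted p under 0.05 the genes called went from 3873 to 8736 (NF against NP), 2881 to 8102 (NF against PEP), 2593 to 6112 (Th against NP), 1383 to 3340 (NF_Pvalb against NF_Calb1), 1717 to 4412 (NF2), 2018 to 5553 (NP_Nts) and 2178 to 6311 (PEP2), and of the 6 genes from 1 to 3 for both NF_Pvalb and NF2. Leaving out a library gave 0 to 1 of the 6 for NF_Pvalb. DESeq2 moved the median of all genes by 0.23 for NF against NP and -0.30 for neurons against endothelial cells, upper quartile scaling by -0.27 for the latter. The level of Tmem150c in NF_Calb1 was 61.0 CPM as a mean over cells (53.6). Thinning to 5000 in place of 10000 UMIs gave 41.1% for Piezo1 (69.6%) and 57.1% for Stom (75%) in endothelial cells, 13.8% for Tmem63a in NP_Nts (26.5%), 77.0% for Tmem63b in NF_Pvalb (90.3%) and 24.4% for Tmem150c in NF_Calb1 (43.9%). Of the 5 most similar genes, Spearman and the 12 neuron types kept 0 and 0 for Piezo1, 2 and 3 for Piezo2, 2 and 0 for Stom, 3 and 3 for Tmem63a, 0 and 0 for Tmem63b and 1 and 1 for Tmem150c. Using only sums of at least 10 cells for levels was added after seeing the data. The cause of these changes was not tested.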
